A study of Homo sapiens with 6 samples.

Results

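The integrin subunits of a melanoma cell line were followed after knock-down of PIR (pirin, a nuclear iron-binding protein). The members are the genes ITGA2, ITGA3, ITGA4, ITGA5, ITGA6, ITGAV, ITGB1, ITGB3, ITGB5 and ITGB8, taken by gene symbol. They are 10 of the 26 human integrin subunits and were chosen with earlier results of these data known. They are read by 34 of the 54675 probe sets of the array, each annotated with 1 of these genes alone. Of these, 30 probe sets were measured, that is, had a signal above 70.2, the median of all values, in at least 1 of 3 RNA pools. The 4 others (3 of ITGB1 and 1 of ITGB8) stayed below it in every pool. All 10 genes had at least 1 measured probe set, among 13053 measured genes of 19775 on the array.

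The cells were WM-266.4, an established human melanoma line, grown with fetal calf serum and seeded 24 h before transfection. The siPIR pool came from cells given 200 pmol of a SMARTpool of 4 siRNA duplexes against PIR (siGENOME). The siCTR pool came from cells given a non-targeting siRNA pool of 4 duplexes (ON-TARGETplus), so the siRNAs of these groups differ in product line as well as in target. The NO pool went through the Oligofectamine procedure without any oligonucleotide. All cells were transfected in serum-free medium and collected after 72 h. RNA of 3 extractions was mixed into each pool, and each pool was hybridised to 2 arrays. The repeat arrays carry the same RNA, so every group is 1 sample and no test between 2 pools is possible. A difference is given with its range over the 4 possible pairs of arrays, which shows hybridisation error only. The study has 1 cell line and 1 siRNA pool against PIR.

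Integrins are receptors made of 1 alpha and 1 beta chain that join the extracellular matrix outside the cell to the actin skeleton inside it. The alpha chain largely sets the ligand, and the beta chain's tail binds talin, kindlin and other adaptors that switch the receptor on and signal from it. In melanoma, integrins are studied for their part in adhesion, migration and spread, and the beta3 chain is a known mark of invasive lesions. A chain reaches the cell surface only with a partner, so a transcript level does not give a receptor level.

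A probe set was called different between 2 pools when its log2 difference was at least 1 (a 2-fold difference) and the arrays of the pools did not overlap. Signals are scaled array intensities, and log2 differences were taken after adding 5.4 to each signal. Where a gene had several probe sets, the brightest stands for the gene. Signals of different probe sets depend on their own sequences, so levels were not compared between genes.

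PIR itself gave signals of 392 and 382 in siPIR, between 13180 and 13544 in siCTR and between 13990 and 14153 in NO, a log2 difference of -5.09 from siCTR. Of the melanocyte markers fixed for this work, 7 of 8 were measured (MITF, SOX10, PMEL, MLANA, TYR, TYRP1 and S100B) and none was called against both controls. Their summed signal was 98092 in siCTR, 100360 in NO and 102304 in siPIR. Of the fibroblast list, 3 of 6 were measured, and the signals of all 6 summed to 12681 in NO, 15210 in siCTR and 23448 in siPIR. Nearly all of that sum was the collagen chain gene COL1A2 (12256, 14793 and 23055). The other measured genes of the list did not follow it, with 120, 206 and 193 for COL1A1 and 167, 150 and 107.5 for LUM. COL3A1, DCN and PDGFRB lay below the measured level in every pool. Of the leukocyte list, 2 of 6 were measured (CD14 and FCER1G), and its summed signal was 346 in NO, 368 in siCTR and 593 in siPIR. CD14 read 92.2, 150.4 and 282 in that order, and PTPRC lay below the measured level in every pool. The endothelial list, with 2 of 5 measured, summed to 639, 433 and 514, and none of the 5 keratinocyte markers was measured. The ratio of 3′ to 5′ ACTB probe sets was 1.13 on both siPIR arrays and 1.23 to 1.27 on the control arrays. The fibroblast sum, which rests on COL1A2, the leukocyte sum and the ACTB ratio move with the siPIR pool. Their part in the integrin results was not tested. In such bulk RNA, fewer cells of a type and less RNA per cell cannot be told apart.

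RefSeq promoters (GRCh38.p14, 250 bases before and 50 after a gene's start) were at hand for 8 of the 10 genes, with 13 promoters in all. Those of ITGA5 and ITGB8 are shown, since these genes hold the probe sets called against both controls. Both strands were searched for the AP-1 site TGANTCA, the NFI motif TTGGCA, the GC box GGGCGG, the E-box CACGTG and the NF-kB motif, and capitals mark the AP-1, NFI and NF-kB matches. The ITGA5 promoter is at chr12:54419217-54419516, minus strand, and that of ITGB8 at chr7:20330650-20330949, plus strand, both written 5′ to 3′ along the gene.
ITGA5: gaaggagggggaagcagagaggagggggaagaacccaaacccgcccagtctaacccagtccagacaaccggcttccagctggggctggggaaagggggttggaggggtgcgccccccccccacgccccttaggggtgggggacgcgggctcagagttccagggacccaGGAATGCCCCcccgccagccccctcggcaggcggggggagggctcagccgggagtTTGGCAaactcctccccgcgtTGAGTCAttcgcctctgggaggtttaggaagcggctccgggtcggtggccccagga
ITGB8: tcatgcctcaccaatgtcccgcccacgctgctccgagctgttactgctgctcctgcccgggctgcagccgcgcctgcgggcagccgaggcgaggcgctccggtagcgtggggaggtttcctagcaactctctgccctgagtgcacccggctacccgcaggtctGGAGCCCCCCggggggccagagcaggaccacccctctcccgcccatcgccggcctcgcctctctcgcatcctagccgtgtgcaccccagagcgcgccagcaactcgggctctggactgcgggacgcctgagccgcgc
The ITGA5 promoter held an AP-1 match at its bases 245 to 251, around the start, an NFI match at 224 to 229 and an NF-kB match at 169 to 178. That of ITGB8 held an NF-kB match at 164 to 173 and 2 GC boxes. Among the 13 promoters, the AP-1 and NFI matches were in that of ITGA5 alone, where 7.71% and 12.5% of all 35116 promoters held them. The NF-kB motif was in 3 of 13 (1 each of ITGA5, ITGB1 and ITGB8), beside 11.3% of all promoters, the GC box in 9 of 13, beside 45.0%, and the E-box in 1 of 13, of ITGA6, beside 7.26%. Both promoters printed were rich in G and C, at 69.3% for ITGA5 and 71.7% for ITGB8 against a median of 58.7% over all promoters. Those of ITGA2 (72.7%) and ITGA4 (72.3%) were richer still, and the 13 member promoters ranged from 40.7% to 78.3%. A match describes these letters only.

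ITGA5 stood highest in siPIR of all the members relative to both controls. This gene encodes the alpha5 chain, which pairs with beta1 to form the classic fibronectin receptor. Its single probe set read 6702 and 6501 in siPIR, 2128 and 2041 in siCTR, and 1176 and 1071 in NO. The 3 pools did not overlap, with NO lowest and siPIR highest. The signal in siPIR was 3.16-fold that of siCTR, a log2 difference of 1.66 (1.61 to 1.71 over the array pairs), and 5.86-fold that of NO, 2.55 in log2 (2.46 to 2.64). The controls differed from each other as well, by 0.89 in log2 (0.79 to 0.99). Among the 13053 measured genes ordered from the highest difference down, ITGA5 took place 134 against siCTR and 13 against NO. It also took place 217 for siCTR against NO.

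ITGA3 encodes the alpha3 chain, which joins beta1 in a laminin receptor. Its probe set read 1338 and 1221 in siPIR, 782 and 769 in siCTR, and 505.5 and 459.6 in NO. As for ITGA5, the pools were apart in the order NO, siCTR, siPIR. The log2 difference was 1.40 against NO (1.26 to 1.53), which was called. Against siCTR it was 0.72 (0.64 to 0.79), which was not called, and the controls differed by 0.68 (0.60 to 0.76).

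ITGA4 encodes the alpha4 chain, known as the partner of beta1 in the receptor for VCAM1 and an alternatively spliced stretch of fibronectin. All 4 of its probe sets lay above both controls on every siPIR array. The brightest read 3980 and 4131 in siPIR, 2800 and 2495 in siCTR, and 2172 and 2583 in NO. Its log2 differences were 0.62 against siCTR and 0.77 against NO, while siCTR and NO overlapped. On the 3 other probe sets the siCTR arrays lay above the NO arrays, by 0.22, 0.25 and 0.34. Over the 4 probe sets the difference of siPIR ran from 0.54 to 0.79 against siCTR and from 0.77 to 1.03 against NO. Against NO, 205885_s_at (1.01) and 243366_s_at (1.03) were called, both close to the limit of 1, and the 2 others (0.77 and 0.88) were below it.

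The 2 probe sets of ITGA6, the alpha6 laminin-receptor chain, went different ways against NO. The brighter, 201656_at, read 4920 and 5820 in siPIR, 4652 and 4946 in siCTR, and 6682 and 7431 in NO. Here siPIR overlapped siCTR, and NO was highest, with log2 differences of 0.16 against siCTR (-0.01 to 0.32) and -0.40 against NO (-0.59 to -0.20). The other, 215177_s_at, read 7617 and 7288 in siPIR, 4636 and 4454 in siCTR, and 3985 and 4107 in NO. It was highest in siPIR, by 0.71 against siCTR (0.65 to 0.77) and 0.88 against NO (0.83 to 0.93). No direction is therefore given for ITGA6 as a gene.

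ITGAV encodes the alphaV chain, the partner of beta1, beta3, beta5 and beta8 in receptors for vitronectin, fibronectin and latent TGF-beta. It read 7448 and 7300 in siPIR, 6725 and 6588 in siCTR, and 6975 and 7221 in NO. The siPIR arrays were the highest, but only by 0.15 in log2 against siCTR and 0.06 against NO. ITGA2, the alpha chain of a collagen receptor, was the member lowest in siPIR relative to the controls when each gene's brightest probe set is taken. Its brighter probe set, 227314_at, read 839 and 934 in siPIR, 1187 and 1400 in siCTR, and 1367 and 1205 in NO. The siPIR arrays lay below all control arrays, by -0.54 against siCTR (-0.73 to -0.34) and -0.53 against NO (-0.70 to -0.37). The second ITGA2 probe set, 205032_at, showed 0.03 and -0.04, and its pools overlapped.

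**Figure D1:**
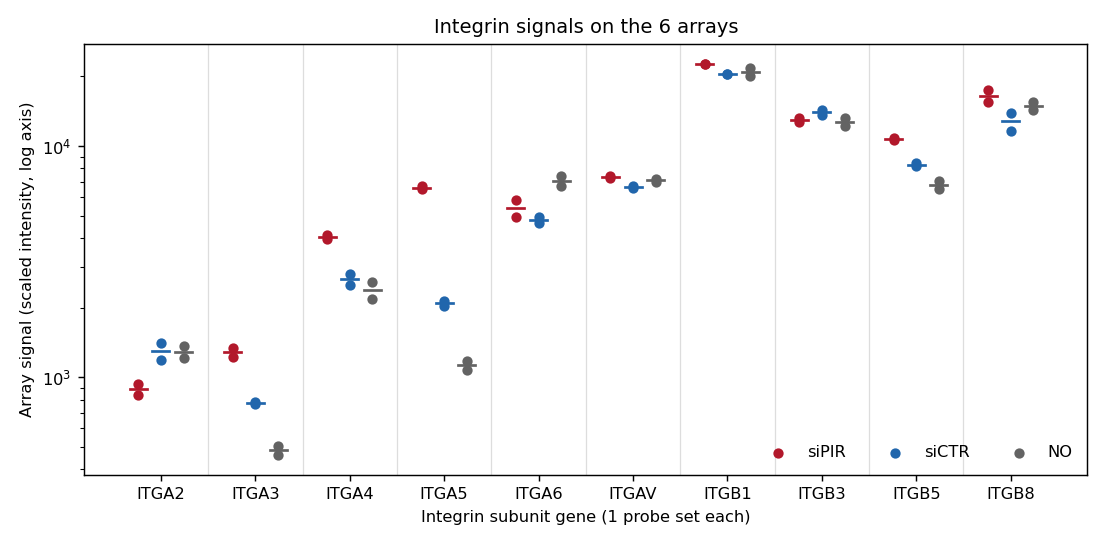
Scaled array signal (log axis) of the probe set standing for each of the 10 integrin subunit genes, with 1 point for each array of the siPIR, siCTR and NO pools and a bar at each pool's mean. ITGA5 and ITGA3 have their pools apart in the order NO, siCTR, siPIR, while ITGAV, ITGB1 and ITGB3 lie at nearly the same height in all 3.

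Among the beta chains, ITGB8 had the probe sets with the greatest differences. Its protein pairs with alphaV and is known for activating latent TGF-beta. The 4 measured probe sets of ITGB8 were all above both controls on every siPIR array, but by different amounts. The brightest, 226189_at, read 15563 and 17413 in siPIR, 11667 and 13876 in siCTR, and 14275 and 15458 in NO. That is 0.37 against siCTR (0.17 to 0.58) and 0.15 against NO (0.01 to 0.29), and it was not called. By contrast, 205816_at read 1274 and 1204 in siPIR, 481.1 and 535.0 in siCTR, and 395.7 and 435.8 in NO. Its log2 differences of 1.28 (1.16 to 1.39) and 1.56 (1.45 to 1.67) were called against both controls.

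The third ITGB8 probe set, 211488_s_at, read 751 and 755 in siPIR, 365 and 310.5 in siCTR, and 348 and 373 in NO. It was called as well, with 1.15 against siCTR (1.03 to 1.27) and 1.05 against NO (1.00 to 1.11), and the controls overlapped. The fourth, 242982_x_at, was dim and its siPIR arrays, at 169 and 350, differed more than the repeat arrays of any other of the 30 measured probe sets in any pool. It was called against siCTR (1.23, from 0.69 to 1.77) but not against NO (0.66, from 0.09 to 1.23). Which stretches of the ITGB8 transcript these probe sets read was not analysed here.

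ITGB5, the beta chain of a vitronectin receptor with alphaV, read 10659 and 10804 in siPIR on its brightest probe set, 8176 and 8436 in siCTR, and 6543 and 7028 in NO. The order of the pools was that of ITGA5, with smaller steps. The differences were 0.37 against siCTR (0.34 to 0.40) and 0.66 against NO (0.60 to 0.72), and neither was called. Its 3 other probe sets gave 0.38, 0.15 and -0.14 against siCTR, and 0.55, -0.72 and -0.03 against NO.

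ITGB1 and ITGB3 were bright, and nearly level on their brightest probe sets. ITGB1 encodes the common beta1 chain, which can pair with each of the alpha chains described above. Its brightest probe set read 22737 and 22707 in siPIR, 20482 and 20520 in siCTR, and 20176 and 21675 in NO, which is 0.15 against siCTR and 0.12 against NO. After quantile normalization these became 0.07 and 0.01. Probe sets 1553678_a_at and 1553530_a_at of ITGB1 gave 0.40 and 0.41 against siCTR, and 0.34 and 0.40 against NO. On both, the siPIR arrays lay above all control arrays. ITGB3, the beta chain of the alphaV beta3 receptor, read 13207 and 12705 in siPIR, 13633 and 14350 in siCTR, and 13256 and 12213 in NO. Its differences were -0.11 and 0.03, and none of its 7 probe sets was called. The extremes among them were 215240_at (-0.57 and -0.65) and 216261_at (0.35 and 0.60), which differ in direction.

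**Figure D2:**
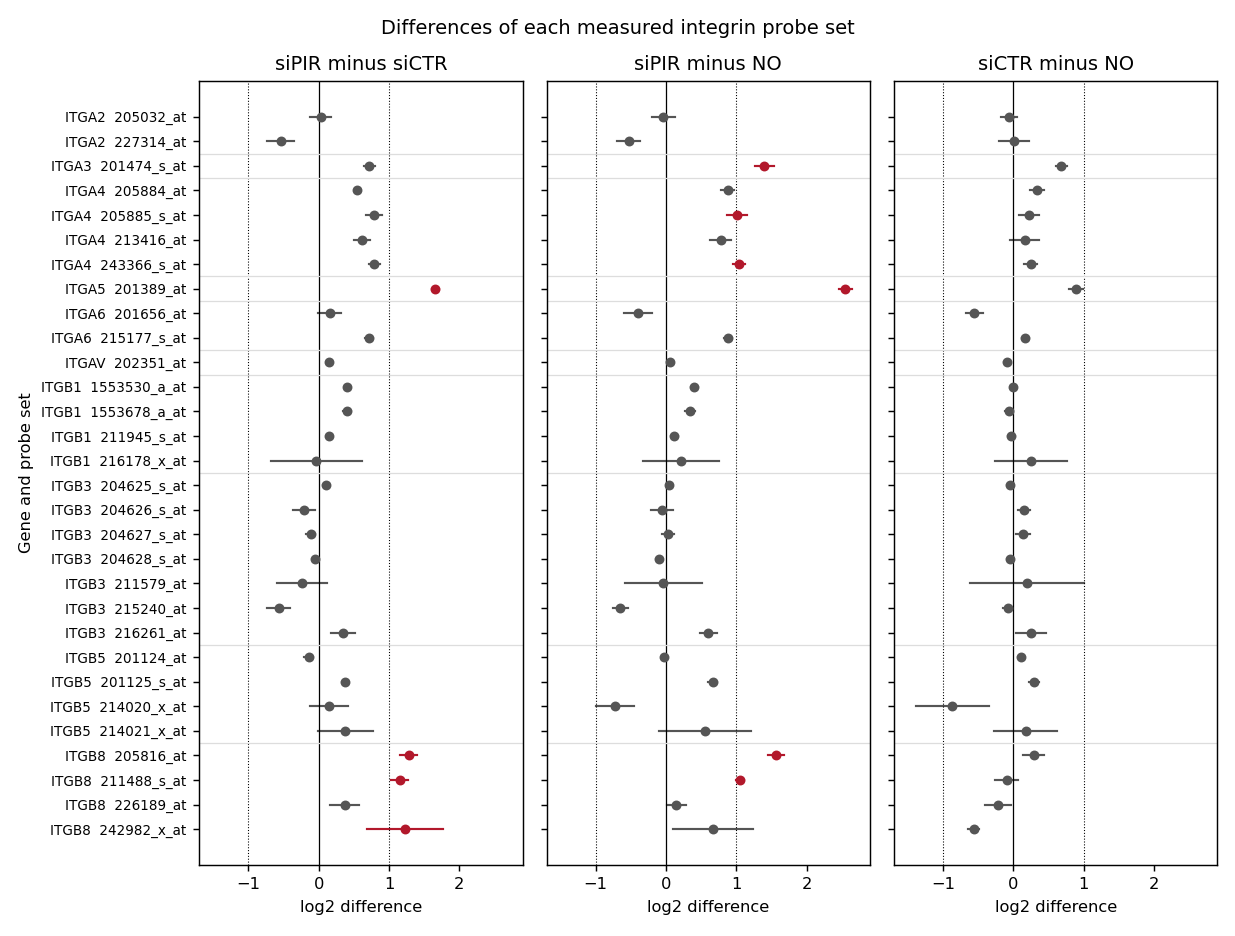
Log2 difference of each of the 30 measured integrin probe sets between the siPIR pool and each control pool, and between the 2 control pools. Lines span the 4 pairs of repeat arrays, dotted lines stand at 1 and -1, and red marks the probe sets called. ITGA5 and 2 probe sets of ITGB8 are beyond 1 against both controls, and the probe sets of ITGA6, ITGB3, ITGB5 and ITGB8 spread widely within their gene.

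Counted over probe sets, 4 of 30 were called higher in siPIR than in siCTR, beside 4.02% of all 25089 measured probe sets with 1 gene. Against NO the count was 6 of 30, beside 3.67%. Against both controls it was 3 of 30, beside 1.52%, namely the 1 of ITGA5 and 2 of ITGB8. None was called lower in any of these comparisons, where 4.11% of all measured probe sets were called lower against siCTR, 6.01% against NO and 3.11% against both. With no minimum size, 18 of 30 had both siPIR arrays above the siCTR arrays and 6 below, beside 35.5% and 28.0% of all measured probe sets. Set against NO, the counts were again 18 and 6, beside 34.0% in each direction. Set against all control arrays, 18 of 30 lay above, beside 25.7% of all, and 4 below, beside 22.1%. Those below were 1 of ITGA2, 2 of ITGB3 and 1 of ITGB5. The probe sets of a gene share their target and are not independent of each other.

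By chain, over the 11 alpha-chain probe sets the median was 0.62 in log2 against siCTR and 0.88 against NO. Over the 19 measured beta-chain probe sets it was 0.15 against each control. Of these, 8 of 11 alpha-chain and 10 of 19 beta-chain probe sets had the siPIR arrays above all control arrays, beside 25.7% of all measured probe sets. Of the 8, 4 read ITGA4. Called higher against both controls were 1 alpha-chain and 2 beta-chain probe sets, against siCTR 1 and 3, and against NO 4 and 2. The shares of all measured probe sets were 1.52%, 4.02% and 3.67% in that order. By gene, 4 of 6 alpha chains and 3 of 4 beta chains were higher in siPIR than in each control. With 1 probe set per gene, the alpha-chain medians were 0.39 against siCTR and 0.41 against NO. Those of the beta chains were 0.26 and 0.13. The difference between the chains was not tested.

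Counted over genes, 1 of 10 members was called higher against siCTR (ITGA5), beside 3.66% of all measured genes. Against NO there were 2 (ITGA5 and ITGA3), beside 3.60%, and against both controls 1 (ITGA5), beside 1.47%. No member was called lower, where 4.21%, 5.40% and 3.20% of all measured genes were. The median over the members was 0.26 for siCTR and 0.13 for NO as the control, where all measured genes had medians of 0.05 and 0.03. Of the 10, 7 were higher in siPIR than in each control, beside 44.4% of all measured genes, and ITGA2 alone was lower than both. These counts take the brightest probe set, and in ITGA2, ITGA6, ITGB1, ITGB3 and ITGB5 the probe sets differ in sign against at least 1 control.

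**Figure D3:**
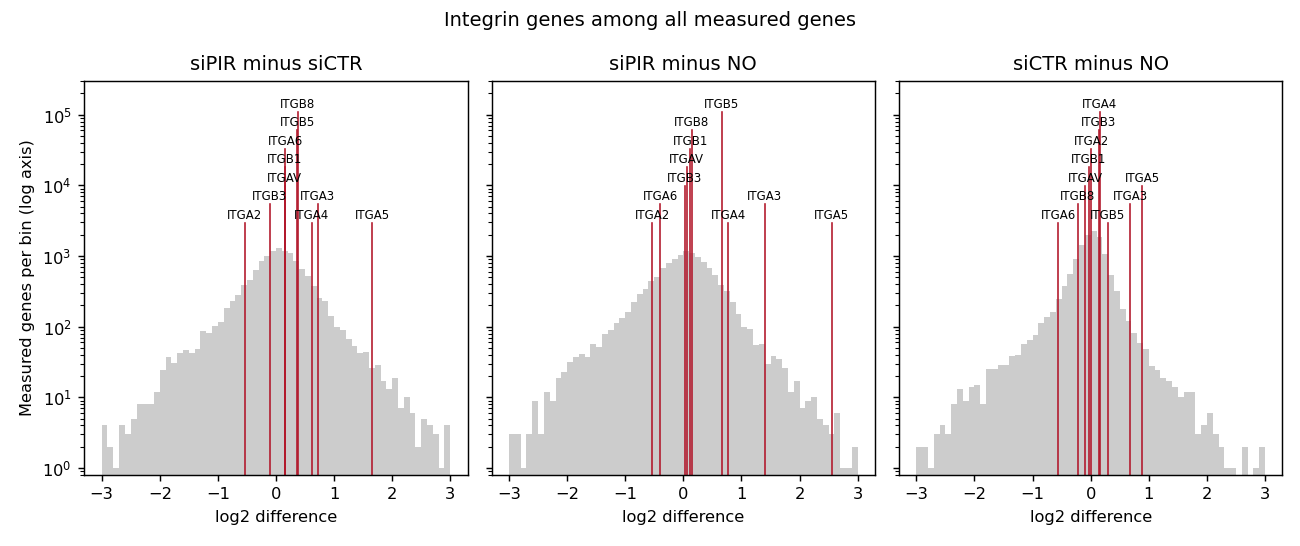
Number of measured genes per bin of log2 difference (grey, log axis, values beyond 3 either way put in the end bins) for siPIR minus siCTR, siPIR minus NO and siCTR minus NO, with a line for each of the 10 integrin subunit genes. ITGA5 stands out to the right in each of the 3 panels, at 1.66, 2.55 and 0.89, and most of the other members lie within the bulk of genes.

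The siCTR and NO pools give the difference between a transfected non-targeting siRNA pool and none. No integrin probe set and no member gene was called there, where 1.16% of all measured probe sets were called higher and 2.97% lower, and 0.996% of genes were called higher and 2.40% lower. Without a minimum size, 12 of 30 probe sets had siCTR above NO and 9 below, beside 23.4% and 28.7% of all. ITGA5 and ITGA3 had the highest differences of the members, 0.89 and 0.68, and ITGA6 the lowest, at -0.55 on its brightest probe set. For both of the former, siCTR lay between the other pools.

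A moderated fit with limma on the 3 pool means compared siPIR with both controls together and had 1 residual degree of freedom. It called 0 of 13053 genes at an adjusted p below 0.05 (0%), and 2752 had an unadjusted p below 0.05 (21.1%). No member passed after adjustment (adjusted p from 0.175 to 0.898 with limma), and 3 of 10 had an unadjusted p below 0.05. For ITGA5 the log2 difference was 2.11 (SE 0.45, limma adjusted p = 0.175), for ITGA4 0.70 (SE 0.17, limma adjusted p = 0.195) and for ITGA2 -0.54 (SE 0.16, limma adjusted p = 0.214). In each of these the siPIR pool lay outside both control pools. The fit takes the controls as replicates of each other, which they are not.

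Of the 16 other human integrin subunits, 11 were measured, of which 6 were lower in siPIR than in each control and 3 higher. Over all 13053 measured genes, 4809 were lower than each control and 44.4% were higher. The lower integrins were ITGA7, ITGA9, ITGA10, ITGAE, ITGAM and ITGB4, and the higher ones ITGAX, ITGB2 and ITGB7. For ITGAX, ITGB2 and ITGB4 the siPIR arrays overlapped those of both controls, and for ITGAM those of siCTR. ITGA1 and ITGA11 differed in sign between the controls. None of the 11 was called higher and 2 were called lower than both controls, beside the 1.47% and 3.20% of all genes given above. ITGAM, a dim gene, was called lower against NO only (-1.33, with -0.40 against siCTR). ITGA7 was not called, with -0.75 against siCTR and -0.85 against NO. ITGA9, which pairs with beta1 and binds tenascin C and osteopontin, read 838 and 786 in siPIR, 2970 and 3009 in siCTR, and 1916 and 1875 in NO. Its siPIR arrays were the lowest, by -1.87 against siCTR and -1.22 against NO, with siCTR above NO by 0.66. Its 2 other measured probe sets were not called. They lay below the siCTR arrays, by -0.84 and -0.90, but overlapped the NO arrays, with -0.27 and -0.39. ITGA10, a collagen-receptor chain, was dim, with 74.0 and 68.8 in siPIR and between 195 and 207 in the controls, differences of -1.43 and -1.42. The median over the 11 was -0.09 against siCTR and -0.07 against NO.

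The proteins that connect integrins with actin and signalling (talin, kindlins, focal adhesion kinase and others) were followed in a list of 40 genes, of which 35 were measured. Against both controls 0 of the 35 were called higher and 1 lower, beside 1.47% and 3.20% of all measured genes. That gene was RSU1, a part of the complex of integrin-linked kinase, PINCH and parvin. It read 1056 and 1133 in siPIR, 2826 and 3027 in siCTR, and 3550 and 3500 in NO, so siPIR was lowest by -1.41 and -1.68. A second RSU1 probe set gave -1.33 and -1.62. Against NO alone, FERMT3 (kindlin-3, 1.35) and PXN (paxillin, a focal adhesion scaffold, 1.09) were called higher. These were 2 of the 35, beside 3.60% of all measured genes, and gave 0.61 and 0.36 against siCTR. A second PXN probe set, 211823_s_at, was called against NO (1.12) but not against siCTR (0.94), and its controls overlapped. The list's medians were 0.22 against siCTR and 0.29 against NO. TLN1 (talin) has 2 measured probe sets that went opposite ways, the brighter with 0.65 and 0.72 and the dimmer, 236132_at, with -0.51 and -0.38. ILK (integrin-linked kinase, 0.44 and 0.54) was higher than each control without being called, and PTK2 (focal adhesion kinase, 0.12 and 0.08) lay near 0.

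The 11 surface partners, such as tetraspanins and CD47, were all measured and none was called on its brightest probe set, with medians of 0.18 and 0.15. Over all measured genes, 1.47% were called higher and 3.20% lower against both controls. CD151, a tetraspanin bound to laminin receptors, gave 0.53 and 0.79. The ligands had 17 of 21 genes measured, none called against both controls, beside the same shares, and medians of 0.21 and 0.11. Only TGFB1, whose latent form alphaV integrins activate, was called against NO (1.03, with 0.74 against siCTR). That is 1 of 17, beside 3.60% of all measured genes called higher. FN1, the gene of fibronectin, is named after its values were seen, as the ligand of the receptor of ITGA5. All 7 of its probe sets were higher in siPIR than in each control, by 0.32 to 0.97 against siCTR and 0.21 to 1.11 against NO. On 1558199_at the siPIR arrays overlapped the NO arrays (0.21, from -0.12 to 0.53). Of the 7, 2 were called against NO, beside 3.67% of all measured probe sets called higher there.

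**Figure D4:**
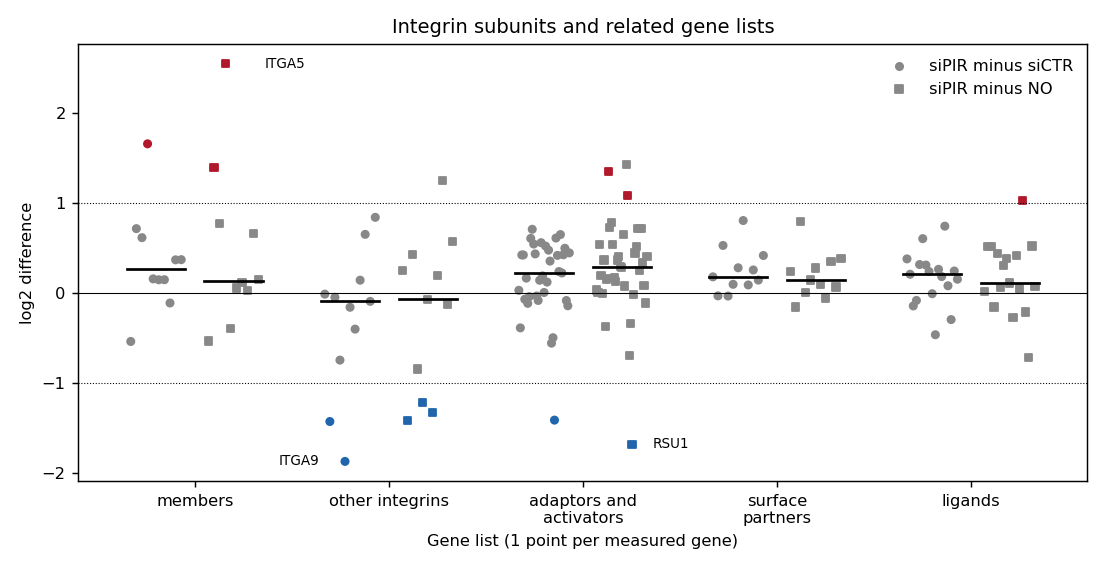
Log2 difference of siPIR from siCTR (circles) and from NO (squares) for the measured genes of each list, 1 point per gene and comparison. Bars mark each list's median, dotted lines stand at 1 and -1, red marks genes called higher and blue genes called lower. ITGA5 is the one gene with both symbols in red, and ITGA9, ITGA10 and RSU1 have both in blue.

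The bright genes whose levels over the 3 pools were most like those of ITGA5 were ANGPTL4, ENO2 and CEMIP, by the distance between mean-centred log2 levels (0.41, 0.43 and 0.44). ANGPTL4, which restrains lipoprotein lipase outside the cell, was higher in siPIR by 2.24 than in siCTR and by 2.81 than in NO. ENO2, a glycolytic enolase, gave 1.43 and 1.95, and CEMIP, which is needed for breakdown of hyaluronan, gave 1.31 and 1.93. With 3 pools such a likeness is a description only.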

How the data were processed

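Levels were measured on 6 Affymetrix HG-U133 Plus 2 arrays, 2 for each of 3 RNA pools. The authors deposited 1 intensity per probe set and array, made with GCOS per the submitters' processing notes, in a version not given in the sources used here. The mean of each array without its lowest and highest 2% came to about 500.1, so the arrays were taken as scaled to a common mean and not normalized again. The deposited intensity was turned into log2(value + 5.4), where the pseudocount 5.4 marks percentile 10 of the values, and fold changes on this scale understate those of dim probe sets. Of the probe sets, 41097 named 1 gene by the platform annotation, 1801 named several and stayed out, and 11777 were not listed there. Repeat arrays were averaged, leaving 1 pool per group. The probe set with the highest mean log2 stood for its gene. limma 3.58.1 in R 4.3.3, with Benjamini-Hochberg adjustment over all measured genes, was fitted to pool means. It was also run on simulated data whose 2 control pools differed by repeat-array noise only. The real controls differ by more, so that run does not show how the fit performs here. Having 1 RNA pool per group limits the precision, since the 2 arrays of a pool show hybridisation error only.

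Named genes were all members, the measured other integrins, up to 6 genes of each list called against both controls, and the 3 bright genes (above 458.4, the 75th percentile) most like a called member. Others named were picked after their values were seen. The members and the lists were chosen with earlier results of these data known. Alternatives were another pseudocount (1, or 4 times the main), filter, scaling or choice of probe sets, and leaving out each array. Promoters are from RefSeq.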

Additional observations from a re-analysis of the deposited data

How the results depend on the processing

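The number of members called against both controls was 1 under all 13 alternatives, and ITGA5 kept a difference of 1.63 to 1.69 against siCTR and 2.48 to 2.62 against NO. Against siCTR the number of member genes called went from 1 to 2 with the mean over a gene's probe sets, which added ITGB8. Against NO it went from 2 to 1 without probe sets of the _s_at and _x_at kinds, which can read several transcripts and include the only one of ITGA3. Leaving out each array gave 3 to 4 probe sets called against siCTR, 5 to 6 against NO, 3 to 4 against both and 0 to 1 for siCTR against NO (an ITGB5 probe set, 214020_x_at, lower in siCTR). These counts over probe sets were chosen after seeing the data. Of 387 member values under alternatives, 17 had the opposite sign, all of uncalled differences. Among them was ITGA6 against NO, -0.40, which became 0.90 without NO replicate 2, when the other probe set stood for the gene. Over all genes, 192 called higher and 418 lower against both controls became 414 and 650 with no filter on low signals, and the higher ones 75 among bright genes and 358 without siPIR replicate 1. With limma, 0 members passed under each alternative. No paired analysis was possible because the repeat arrays of a pool carry the same RNA and count as 1 sample. Signals near the lower limit, as for 242982_x_at, have the least precision.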

Other observations

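CD47, a partner of the alphaV beta3 receptor and the signal that restrains uptake by macrophages, had 5 measured probe sets with different values. The brightest, 213857_s_at, was level, with -0.03 against siCTR and 0.00 against NO. In contrast, 226016_at read 538 and 526 in siPIR, 2141 and 2142 in siCTR, and 1978 and 2355 in NO, differences of -2.0 and -2.01. A dim one, 213055_at, gave -1.15 and -1.60, and 211075_s_at gave 0.32 and 0.43. CD47 was singled out after its values were seen, and where in the transcript these probe sets lie was not analysed here.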
